A study of Homo sapiens with 12 samples.

Results

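Gene expression was compared between UKE1 and HEL cells that had both been cultured for 6 h with 250 nM ITF2357 (givinostat), to see which differences between the lines remained under the drug and which existed in its presence. The 3 treated UKE1 arrays and the 3 treated HEL arrays made up 6 of the 12 arrays of the series; the other 6 held the same lines without drug, 3 each. All cells carried the JAK2V617F mutation, which leaves the kinase JAK2 active without cytokine, and both lines are labelled as erythroleukemia cells. Both media held 10% FCS; that of UKE1 also held 10% horse serum, 10 µM hydrocortisone and HEPES buffer. Line and medium therefore cannot be told apart, and each line stands for 1 culture history. The series describes independent triplicates without saying how cultures were separated, so a p-value here reflects the spread of these arrays, which may be technical.

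Histone deacetylases take acetyl groups off histones, and inhibitors such as ITF2357 raise acetylation and shift the expression of many genes within hours. HEL is known for its erythroid and megakaryocytic features, set by factors such as GATA1, TAL1, NFE2 and KLF1, while early blood progenitors are marked by CD34 and FLT3. Lines of one disease can thus sit at different points of blood cell formation, and the same inhibitor meets a different set of active genes in each.

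Levels are the deposited log2 values, on which 1 unit is a doubling. A difference is the mean of the 3 UKE1 arrays minus that of the 3 HEL arrays, with the standard error (SE) of a limma fit to all 12 arrays. A gene is called different where the Benjamini-Hochberg adjusted p over 18417 genes was under 0.05. The table has no detection flag, so a low value may be background and a large fold then understates the ratio. Arrays of a group correlated at r = 0.994 to 0.996. The treated lines correlated at 0.939 to 0.943 and the untreated lines at 0.935 to 0.937 (9 pairs of arrays each), while the median absolute difference between arrays of different lines was 0.345 to 0.375 with drug and 0.359 to 0.371 without. Of genes that mark the labelled erythroid type, HBE1 read 5.31, 5.13 and 5.29 in treated UKE1, below the array medians of 6.41 to 6.50. GATA1 read 6.70, 7.02 and 6.86, just above them, and TAL1 (8.401, 8.36 and 8.55) and SLC25A37 (9.43, 9.55 and 9.63) lay well above.

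Most line differences were kept under the drug. Of the 18417 genes, 12525 (68.0%) differed between the treated lines, 6268 higher (34.0%) and 6257 lower (34.0%) in UKE1; without drug 12471 (67.7%) differed, 6132 higher (33.3%) and 6339 lower (34.4%). The median difference over all genes was 0.019 with drug and the median absolute difference 0.35, the same as without drug at 0.35. At least 2-fold differences were called for 2705 genes (14.7%), 1127 higher (6.12%) and 1578 lower (8.57%) in UKE1, against 2878 (15.6%) without drug, 1351 higher (7.34%) and 1527 lower (8.29%). The 3 arrays of one line lay wholly beyond those of the other for 13319 genes (72.3%). Among the 12028 genes with a group mean above the median of all values, 4241 were higher and 5170 lower in treated UKE1. The even split over all genes did not hold among them.

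The treated and the untreated comparison share no arrays, only the estimate of the spread. Of the genes called with drug, 82.1% were also called without it, and 96.8% of the 10288 genes called in both had the same sign. These 9962 kept differences (54.1% of genes) included 2140 of at least 2-fold in both conditions (11.6%), which were 79.1% of the 2-fold differences with drug and 74.4% of those without. Across genes, which are not independent replicates, the treated and untreated differences had a Pearson correlation of 0.929 and a Spearman correlation of 0.870. The change of a line difference with the drug, called the interaction here, was past the threshold for 4395 genes (23.9%). It was not called for 7415 kept differences (40.3%), and left 1503 narrower under the drug (8.16%) and 1044 wider (5.67%). A further 740 differences were called only under the drug (4.02%), 769 only without it (4.18%), and 326 had opposite signs (1.77%) between conditions, each with a called interaction. Of the rest, 1497 were called with drug alone (8.13%) and 1414 without drug alone (7.68%) with no called interaction, 3696 in neither condition (20.1%) and 13 by the interaction alone (0.0706%). The drug itself changed 7816 genes in HEL (42.4%) and 8160 in UKE1 (44.3%). The gene lists below are set against all genes: 34.0% higher in treated UKE1, 34.0% lower and 23.9% with a called interaction. These shares do not suit lists of well-expressed genes. Of the 12028 genes with a group mean above the median of all values, 4241 were higher and 5170 lower in treated UKE1. Interactions were also called more often among them. An excess of lower members or of interactions in such a list may thus be shared with well-expressed genes in general.

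**Figure D1:**
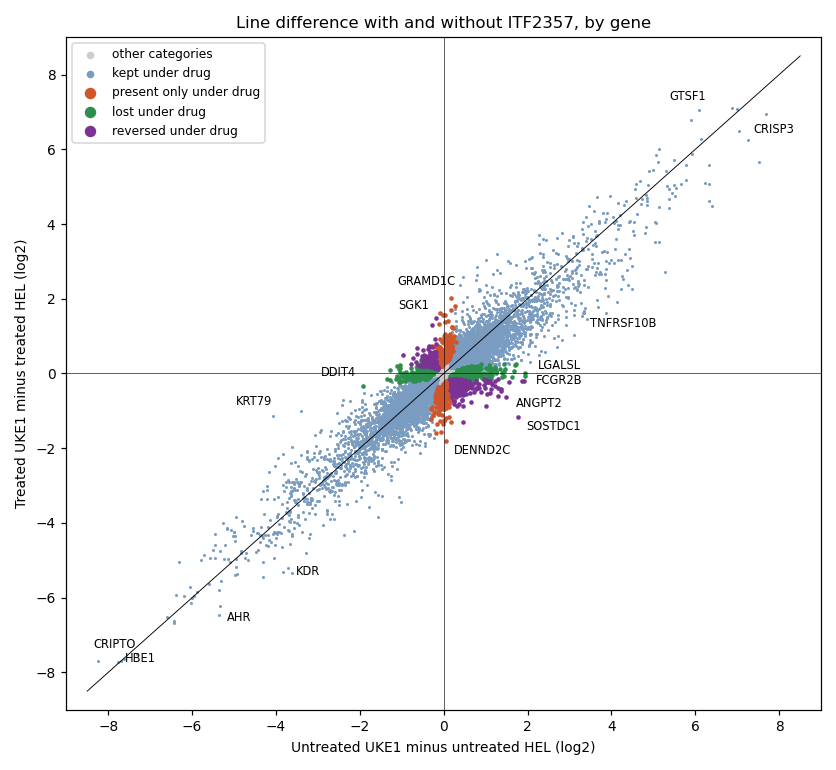
Each point is 1 of the 18417 genes, with the untreated line difference (UKE1 minus HEL, log2) on the x axis and the treated one on the y axis; the diagonal marks equal differences. Most points follow the diagonal from HBE1 and CRIPTO at -7.72 and -7.69 to GTSF1 at 7.12, while genes present only under drug (orange), lost (green) or reversed (purple) lie close to the origin, none with a treated difference beyond 2.02 in size.

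The largest differences spanned most of the range of the arrays. In treated HEL cells the embryonic globin HBE1 read 12.96, 13.00 and 12.92 on the 3 arrays, and in treated UKE1 cells 5.31, 5.13 and 5.29. This difference of -7.72 ± 0.069 (SE) was 210.2-fold (adjusted p = 5.25e-17), and it was -7.76 without drug. The Nodal co-receptor CRIPTO read 10.72, 10.43 and 9.90 in HEL and 2.61, 2.79 and 2.60 in UKE1, 206.1-fold lower (adjusted p = 4.3e-14). Its HEL arrays spread over almost 1 log2 unit, yet all lay far above the UKE1 arrays. Carbonic anhydrase 1 of red cells, CA1, read 11.87, 11.88 and 11.70 in HEL and 4.16, 4.41 and 4.34 in UKE1 (182.9-fold lower), with no overlap. Also high in HEL were HDC, which makes histamine (-6.69), the trafficking adaptor TOM1L1 (-6.62), the aryl hydrocarbon receptor AHR (-6.47), the neuropeptide NTS (-6.23) and the neuropeptide Y receptor NPY1R (-6.15). The proteasome assembly chaperone PSMD5 (-6.02), the mitochondrial co-chaperone DNAJC15 (-5.96), the Rh antigen RHD (-5.95) and CYP11A1, which starts steroid synthesis from cholesterol (-5.94), completed the 12 largest decreases. RHD and RHCE are close copies that probes may not separate.

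In the other direction GTSF1, a factor of the germline piRNA pathway, led the genes high in UKE1. It read 10.95, 10.96 and 10.92 in treated UKE1 and 3.89, 3.67 and 3.91 in treated HEL, 138.9-fold higher (adjusted p = 1.97e-16). The amyloid precursor gene APP read 11.33, 11.37 and 11.23 in UKE1 and 4.17, 4.199 and 4.34 in HEL, a difference of 7.08 ± 0.084 (SE). CRISP3, a secreted protein of neutrophil granules, read 12.51, 12.47 and 12.46 in UKE1 and 5.59, 5.42 and 5.60 in HEL, 123.2-fold higher. The groups did not overlap for any of these 3 genes. The small nucleolar RNAs SNORD113-4 (7.06), SNORD113-3 (6.77) and SNORD114-2 (6.01), near-identical copies of an imprinted cluster, were among the 12 largest increases. The others were CLEC9A, a lectin of dendritic cells (6.50), the metalloprotease ADAM28 (6.27), the GATA-type repressor TRPS1 (6.24), DOCK10 (5.87), the Groucho corepressor TLE4 (5.86) and TC2N (5.71). All 24 differences were called without drug too, with the same sign. The interaction was not called for 14 of them; 6 were wider under the drug (the 3 snoRNAs, TLE4, AHR and NTS) and 4 narrower (CRISP3, CLEC9A, TRPS1 and CYP11A1). AHR rose in HEL (0.95, adjusted p = 1.5e-07).

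**Figure D2:**
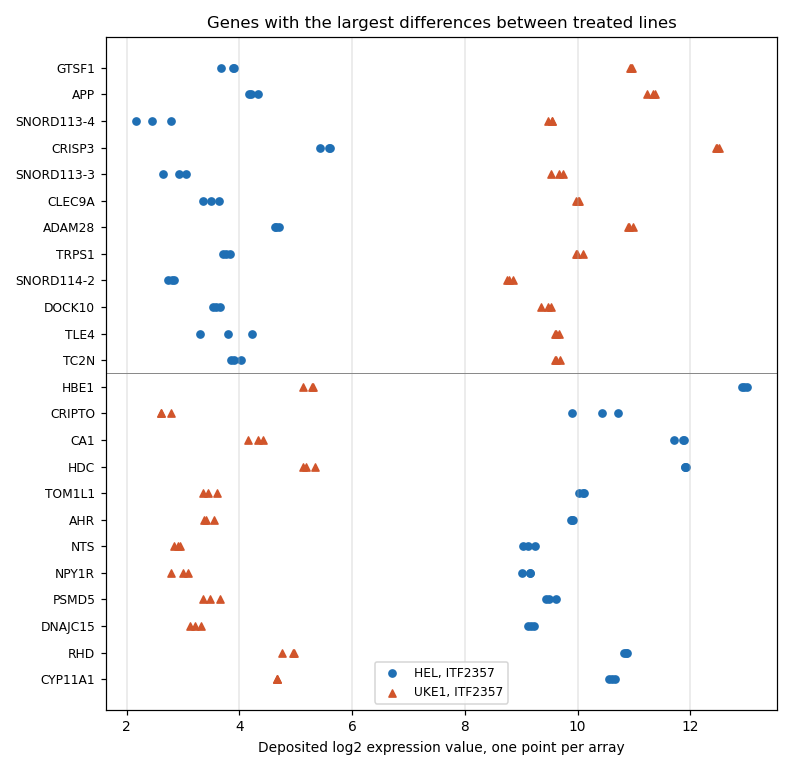
Deposited log2 values on the x axis for the 12 genes highest in treated UKE1 (upper rows) and the 12 highest in treated HEL (lower rows); each gene has 3 circles for treated HEL arrays and 3 triangles for treated UKE1 arrays. For every gene the 2 lines are apart by more than 5 log2 units, with CRIPTO and TLE4 showing the widest spread within HEL.

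Red cell genes were higher in HEL. Of 7 measured genes for globins and the globin chaperone AHSP, 0 were higher in treated UKE1, 5 lower and 2 not past the threshold (median difference -0.89, -0.63 untreated). After HBE1 came the adult chains HBB (-1.64) and HBD (-1.45) and the embryonic HBZ (-0.89). HBB and HBD are near copies. HBD read 7.57, 7.44 and 7.38 in treated HEL and 5.96, 6.10 and 5.98 in treated UKE1, and it was the member whose difference grew with the drug (interaction -0.87, adjusted p = 0.000203). Of 14 heme synthesis and iron uptake genes, 0 were higher in treated UKE1, 13 lower and 1 not past the threshold (median difference -0.86). ALAS2, the erythroid enzyme that starts heme synthesis, read 9.58, 9.48 and 9.60 in HEL and 6.16, 6.22 and 5.93 in UKE1, 10.9-fold lower (adjusted p = 6.23e-14). The mitochondrial iron importer SLC25A37 (-1.61) and the ferritin light chain FTL (-1.13) followed. HMOX1, which breaks heme down, was -1.96 with drug and -3.61 without, as it fell by 1.24 in HEL and rose by 0.41 in UKE1 (log2).

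The red cell membrane and blood group list had the lowest median of all lists, at -1.92 (-1.60 untreated). Of 16 members 3 were higher in treated UKE1, 13 lower and 0 not past the threshold; 9 were at least 2-fold lower. The Kell antigen KEL (-3.95) and the membrane skeleton proteins EPB42 (-3.77) and DMTN (-2.91) stood next to CA1. The 3 members higher in UKE1, named after their values were seen, were CD44 (0.72), a hyaluronan receptor, the adducin ADD2 (0.41) and RHAG (0.22), a partner of the Rh proteins. In a bulk sample, fewer cells of a type and less RNA per cell cannot be told apart.

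Platelet genes were mostly, but not all, higher in HEL. Of 24 receptor and granule genes, 4 were higher in treated UKE1, 15 lower and 5 not past the threshold (median difference -0.64, -0.40 untreated). GP1BA, a chain of the von Willebrand factor receptor, read 9.09, 9.05 and 9.16 in treated HEL and 7.22, 7.23 and 7.198 in treated UKE1 (3.69-fold lower, adjusted p = 1.2e-12). The tetraspanin CD9 was lower in UKE1 with drug (-1.66) and less so without (-0.35; interaction adjusted p = 3.74e-07). It rose in HEL (0.86) and fell in UKE1 (-0.46). Against this direction went 4 genes: the platelet chemokine PPBP (4.18, 18.1-fold higher in UKE1), the podoplanin receptor CLEC1B (3.99) and, named after their values were seen, von Willebrand factor VWF (1.97) and TREML1 (0.61). PPBP read 10.48, 10.48 and 10.41 in UKE1 and 6.09, 6.45 and 6.30 in HEL. The interaction was called for 12 of the 24 genes, above the 23.9% of all genes, and 3 differences were lost under drug.

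Mast cell and basophil genes were lower in UKE1 too: of 8, 0 were higher in treated UKE1, 6 lower and 2 not past the threshold (median difference -1.60); 1 was higher without replicate 2 of treated UKE1. Besides HDC these were FCER1A, the IgE-binding chain (-4.97), the eosinophil granule protein PRG2 (-1.72) and the transcription factor GATA2 (-1.47). FCER1A read 11.13, 10.90 and 10.70 in treated HEL and 5.90, 6.08 and 5.84 in treated UKE1, apart by 31.3-fold.

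Progenitor genes were split. Of 16 stem and progenitor genes, 10 were higher in treated UKE1, 5 lower and 1 not past the threshold (median difference 0.66, 1.03 untreated). CD34 read 10.96, 10.97 and 10.88 in treated UKE1 and 5.37, 5.39 and 5.31 in treated HEL, 47.8-fold higher (adjusted p = 8.96e-17). Its difference narrowed from 6.31 to 5.58, and it fell in both lines (-1.19 in UKE1 and -0.45 in HEL). The receptor tyrosine kinase FLT3 (3.82) and the protease inhibitor SPINK2 (4.03) were high in UKE1. THY1, by contrast, was 16.8-fold lower in UKE1 (-4.07, -2.87 untreated) after rising by 1.33 in HEL. MECOM, a stem cell regulator named after its value was seen, was also lower (-4.200). The interaction was called for 10 of the 16, against 23.9% of all genes.

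Over all measured members, myeloid, lymphoid and lectin genes were more often higher than lower in UKE1. The list means of treated HEL arrays were 6.18 to 6.24 (myeloid), 5.73 to 5.77 (T and NK) and 5.12 to 5.27 (B cell). These lie below the array medians of 6.41 to 6.50, so some members may be background in HEL. Of 22 myeloid granule and monocyte genes, 13 were higher in treated UKE1, 6 lower and 3 not past the threshold (median difference 0.41); with the filter on low values, 6 were higher. CSF1R, the receptor of the macrophage growth factor, read 8.74, 8.84 and 8.75 in treated UKE1 and 5.78, 5.67 and 5.61 in treated HEL. Its difference narrowed from 4.45 to 3.09, and it fell by 1.44 in UKE1 (log2). The integrin chain ITGAM (2.71) and the calcium-binding S100A8 (1.86) were higher and the Fc receptor FCGR2A (-2.19) lower. Of 22 T and NK cell genes, 12 were higher in treated UKE1, 7 lower and 3 not past the threshold (median difference 0.34). The 3 chains of the CD3 complex, which carries the T cell receptor's signal, led them: CD3G read 9.54, 9.61 and 9.55 in UKE1 and 4.06, 3.90 and 4.01 in HEL (47.6-fold higher). CD3E (3.50), CD3D (4.51) and the adhesion molecule NCAM1 (3.50) were also higher. CD4 (-0.044) and CD5 (-0.032), looked up after the values were seen, were not past the threshold. The 7 lower members of the T and NK list went down to -1.66. Of that list, 1 member was at least 2-fold lower and 6 at least 2-fold higher in treated UKE1. Of 13 B cell genes, 10 were higher in treated UKE1, 1 lower and 2 not past the threshold (median difference 0.41; 6 higher and 0 lower with the filter on low values), led by the lectin CD22 (3.598), PAX5 (1.66) and the receptor chain CD79B (1.48); CR2 was lower (-2.31). CD22 and PAX5 rose in UKE1 with the drug, by 1.37 and 0.75, and their line differences widened.

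C-type lectins had the highest median of all lists (1.67, 2.25 untreated). Of 19, 16 were higher in treated UKE1, 1 lower and 2 not past the threshold, and 14 were at least 2-fold higher. CLEC9A was joined by CLEC1A (5.18), the beta-glucan receptor CLEC7A (4.45) and CLEC1B (3.99). CLEC7A read 7.34, 7.23 and 7.33 in UKE1 and 2.68, 2.84 and 3.03 in HEL. For CLEC9A, CLEC1A and CLEC7A the difference was narrower under the drug (interactions -0.54, -0.61 and -0.69). CLEC11A, a secreted growth factor named after its value was seen, was the member lower in UKE1 (-1.58).

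**Figure D3:**
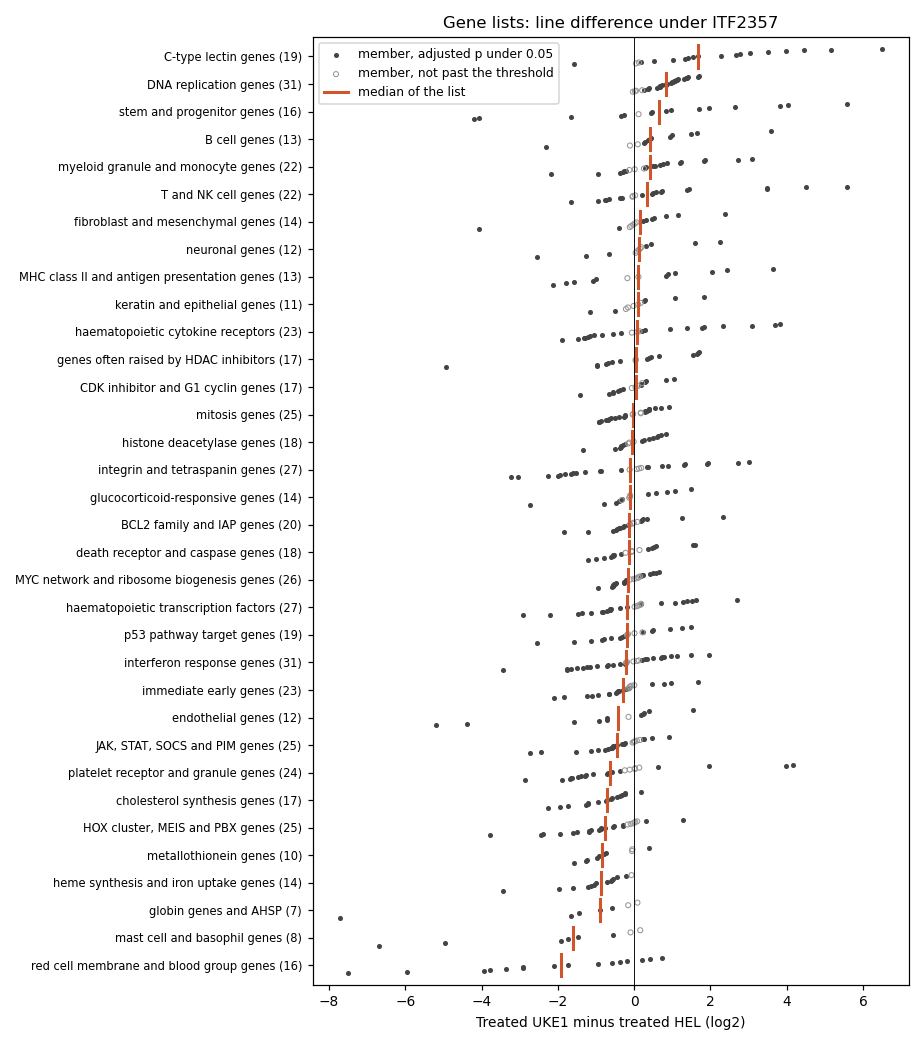
Each row is 1 gene list with its number of measured members, sorted by median; the x axis gives treated UKE1 minus treated HEL (log2). Filled points are members past the adjusted p threshold of 0.05, open points are members that are not, and the orange bar is the list's median, from -1.92 for red cell membrane genes to 1.67 for C-type lectins.

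Blood cell transcription factors differed in both directions. Of 27, 8 were higher in treated UKE1, 14 lower and 5 not past the threshold (median difference -0.18). GATA1, the main regulator of erythroid cells, read 9.77, 9.74 and 9.84 in treated HEL and 6.70, 7.02 and 6.86 in treated UKE1, 7.596-fold lower (adjusted p = 3.58e-13). NFE2, which drives globin and platelet genes, read 9.09, 9.04 and 9.29 in HEL and 6.92, 6.92 and 6.98 in UKE1 (-2.20). Both factors had fallen in each line, and their line differences of -2.81 and -2.03 without drug had interactions of -0.11 and -0.17, not past the threshold (adjusted p = 0.52 and adjusted p = 0.281). TAL1 was lower in UKE1 (-0.63, adjusted p = 6.13e-06). MYB, a factor of proliferating progenitors, read 10.06, 9.92 and 10.05 in treated UKE1 and 9.82, 9.85 and 9.83 in treated HEL, a difference of 0.18 ± 0.059 (SE, adjusted p = 0.0147). That call was lost without replicate 1 or replicate 3 of treated UKE1 (adjusted p = 0.0588 and 0.0518). MEIS1, a cofactor of HOX proteins, was 2.41-fold higher in UKE1, and narrower than without drug (1.87). Named after its value was seen, BCL11A, a repressor of fetal globin, was the highest of the list (2.71).

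HOX genes, which give positional identity and are active in early blood cells, were mostly lower in UKE1. Of 25 HOX, MEIS and PBX genes, 2 were higher in treated UKE1, 17 lower and 6 not past the threshold (median difference -0.77, -0.56 untreated); 1 was higher without replicate 1 of treated UKE1. Of the 17, 8 were of the B cluster, where 10 genes were measured and 0 were higher, and 3 of the C cluster, where 3 were measured. The B cluster was led by HOXB9 (-3.79), HOXB7 (-2.39) and HOXB5 (-1.60). HOXB9 read 9.27, 9.23 and 9.37 in treated HEL and 5.49, 5.62 and 5.40 in treated UKE1. HOXB7 read 7.34, 7.19 and 7.38 in HEL and 4.91, 4.86 and 4.95 in UKE1; it rose in HEL (0.72) and its difference widened (interaction -0.84). MEIS2 was lower (-2.44) and had fallen in UKE1 (-0.90). Of the A cluster, 1 gene was measured by a probe set of a single symbol, so that cluster is not described.

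Cytokine receptors split evenly. Of 23, 10 were higher in treated UKE1, 10 lower and 3 not past the threshold (median difference 0.084). The interleukin-3 receptor chain IL3RA read 7.89, 7.87 and 7.79 in treated UKE1 and 4.13, 4.10 and 4.25 in treated HEL, 12.9-fold higher. FLT3, CSF1R and the interleukin-6 receptor IL6R (2.33, 3.14 untreated) were also high in UKE1. Of 25 JAK, STAT, SOCS, PIM and phosphatase genes, in contrast, 4 were higher in treated UKE1, 16 lower and 5 not past the threshold (median difference -0.44, -0.15 untreated). JAK2 itself read 10.71, 10.87 and 10.62 in treated HEL and 7.996, 7.97 and 8.03 in treated UKE1, 6.66-fold lower (adjusted p = 2.41e-13). This gap was 4.18-fold without drug; JAK2 fell in UKE1 by 0.57 (log2), and the log2 change in HEL was 0.10 (adjusted p = 0.263). The feedback inhibitor SOCS3 (-2.45) and the survival kinase PIM2 (-1.52) were lower, PIM2 less so than without drug (-2.93). STAT5A, a main target of JAK2, was lower (-0.58, adjusted p = 1.2e-06). The phosphatase PTPN2, which dampens JAK signalling, was higher (0.92).

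Survival genes showed different family members in each line. Of 20 BCL2 family and IAP genes, 6 were higher in treated UKE1, 10 lower and 4 not past the threshold (median difference -0.13). BCL2L1, which codes for BCL-xL, read 10.82, 10.82 and 10.95 in treated HEL and 9.12, 9.003 and 8.93 in treated UKE1, 3.59-fold lower (adjusted p = 1.26e-11). BCL2 read 8.16, 8.21 and 8.34 in UKE1 and 6.997, 6.90 and 7.07 in HEL, 2.38-fold higher, after a difference of 2.07 without drug. BCL2A1 was also higher (2.34), and the death agonist BID lower (-1.21). Of 18 death receptor and caspase genes, 6 were higher in treated UKE1, 8 lower and 4 not past the threshold (median difference -0.14). The median without drug was 0.29, with 10 higher and 6 lower. The TRAIL receptor TNFRSF10B narrowed most clearly, from 3.30 to 1.55 (adjusted p = 1.35e-06 for the interaction), as it rose by 1.96 in HEL. Its treated arrays read 7.54, 7.69 and 7.71 in HEL and 9.20, 9.17 and 9.20 in UKE1, still without overlap. CASP10 (-1.21, -0.38 untreated) and the decoy receptor TNFRSF10D (-1.01) were lower in UKE1, and CASP1 was higher (1.59). The interaction was called for 10 of the 18 genes, above the 23.9% of all genes.

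p53 pathway genes gave counts of 6 higher, 9 lower and 4 not past the threshold of 19 (median difference -0.19). TP53INP1 (-2.55) and GADD45A (-1.57) were lower, and SESN1 (1.495) and the repair gene DDB2 (1.24) higher. Of 17 CDK inhibitor and G1 cyclin genes, 6 were higher in treated UKE1, 7 lower and 4 not past the threshold (median difference 0.037), with the inhibitor CDKN2D lower (-1.42) and CDKN1C (0.85) and cyclin E2, CCNE2 (1.05), higher. The p53 target and cell cycle inhibitor CDKN1A reversed. Its arrays read 7.73, 7.79 and 7.63 in HEL and 7.93, 7.89 and 7.92 in UKE1 without drug, and 8.77, 8.63 and 8.77 and 8.32, 8.39 and 8.36 with it. The line difference went from 0.20 ± 0.063 to -0.36 ± 0.063 (SE; interaction adjusted p = 0.000455). CDK2 differed only under the drug (-0.56 against 0.069).

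DNA replication genes were higher in UKE1 almost throughout. Of 31, 27 were higher in treated UKE1, 0 lower and 4 not past the threshold (median difference 0.83), against a median of 1.17 and 30 higher without drug. The licensing factor CDT1 read 9.48, 9.64 and 9.47 in treated UKE1 and 7.85, 7.85 and 7.81 in treated HEL, 3.23-fold higher (adjusted p = 8.69e-12). GINS2 (1.67) and the helicase subunits MCM6 (1.39) and MCM4 (1.30) followed. Under the drug 3 differences were lost and 12 of 31 interactions were called, against 23.9% of all genes. The list means of treated arrays were 8.72 to 8.80 in HEL and 9.53 to 9.62 in UKE1. Well-expressed genes had called interactions more often than all genes, so this share is not read as particular to the list. Mitosis genes did not share this direction: of 25, 9 were higher in treated UKE1, 12 lower and 4 not past the threshold (median difference -0.037). The spindle factor TPX2 (-0.93), CDC20 (-0.93), the checkpoint kinase BUB1 (-0.74) and cyclin B2, CCNB2 (-0.86), were lower, none by 2-fold.

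Genes for deacetylases differed modestly. Of 18 genes for histone deacetylases, the class that holds the drug's targets, and sirtuins, which such inhibitors do not target, 8 were higher in treated UKE1, 7 lower and 3 not past the threshold (median difference -0.067), and 1 difference reached 2-fold. HDAC11, which rose in both lines with the drug, read 7.81, 7.61 and 8.02 in treated HEL and 6.56, 6.48 and 6.35 in treated UKE1 (2.55-fold lower). HDAC8 (0.70), HDAC9 (0.83) and SIRT1 (0.62) were higher. HDAC1, HDAC2 and HDAC3 differed by -0.23, -0.34 and 0.49; the HDAC1 call was lost after quantile normalization (-0.035, adjusted p = 0.614). Of 17 genes often raised by such inhibitors, 8 were higher in treated UKE1, 7 lower and 2 not past the threshold (median difference 0.046). The interaction was called for 10 of the 17, against 23.9% of all genes. Clusterin, CLU, was 30.8-fold lower in UKE1 with 11.45, 11.39 and 11.44 in HEL and 6.48, 6.50 and 6.46 in UKE1. Its gap was 26.6-fold without drug. Its log2 change with drug was 0.14 in HEL (adjusted p = 0.08) and -0.073 in UKE1 (adjusted p = 0.361). The actin-severing GSN (1.65), KLF6 (1.69) and CRIP2 (1.54) were higher. Past the threshold, the drug raised KLF6 in both lines, and GSN and CRIP2 in HEL alone.

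Genes of MYC and ribosome assembly differed little in size. Of 26, 7 were higher in treated UKE1, 13 lower and 6 not past the threshold (median difference -0.15), and 0 reached 2-fold; 8 were lower after quantile normalization. NOP16 (-0.94), WDR12 (-0.57), MAX (-0.56), the partner of MYC, and NOP2 (-0.56) led. MYC read 11.19, 11.21 and 11.28 in treated HEL and 11.37, 11.38 and 11.27 in treated UKE1, 0.11 ± 0.058 apart (SE, adjusted p = 0.0968), where the untreated lines had differed by -0.46 (adjusted p = 7.93e-06). It fell by 0.79 in HEL and by 0.22 in UKE1 (log2), with a called interaction (adjusted p = 0.000222). After quantile normalization the treated difference was 0.29 (adjusted p = 0.000381), and it was also called with array weights and with a trended, robust fit.

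Among interferon response genes, 18 of 31 interactions were called, against 23.9% of all genes. With drug, 11 were higher in treated UKE1, 15 lower and 5 not past the threshold (median difference -0.21, 0.096 untreated), and 5 members changed sign. The antiviral GTPase MX2 read 8.88, 8.98 and 8.95 in treated HEL and 5.57, 5.45 and 5.48 in treated UKE1 (10.8-fold lower). The RNA sensor RIGI (-1.77, -0.83 untreated) and the factor IRF1 (-1.66) were lower, whereas OAS2, which makes the activator of RNase L, was higher (1.96, 2.74 untreated). Of 13 antigen presentation genes, 6 were higher in treated UKE1, 5 lower and 2 not past the threshold (median difference 0.11). The peptide transporter TAP1 (-1.78) and the immunoproteasome subunit PSMB9 (-2.13) of the class I pathway were lower. The class II genes HLA-DMB (2.44) and HLA-DPB1 (2.05) were higher in UKE1. HLA-DPB1 read 10.28, 10.35 and 10.30 in UKE1 and 8.24, 8.13 and 8.41 in HEL. HLA genes are polymorphic, so that probe match can differ between lines.

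Among stress and hormone responsive genes, metallothioneins had the lowest median. Of 10 metallothionein and regulator genes, 1 was higher in treated UKE1, 7 lower and 2 not past the threshold (median difference -0.85, -1.15 untreated). MT1G (-1.58), MT1F (-1.25) and MT1X (-0.98) were closer between lines than without drug, and MT1M was lower (-0.92); these are near-identical copies. Of 23 immediate early genes, 4 were higher in treated UKE1, 14 lower and 5 not past the threshold (median difference -0.28). JUN, a subunit of the AP-1 factor, narrowed from -3.25 to -2.10 as it rose by 1.28 in UKE1. Its treated arrays read 9.54, 9.60 and 9.67 in HEL and 7.49, 7.58 and 7.45 in UKE1. FOSB (-1.83) and EGR1 (-1.24) were lower as well. Of 14 glucocorticoid-responsive genes, 5 were higher in treated UKE1, 5 lower and 4 not past the threshold (median difference -0.12). Without drug 2 were higher and 9 lower. With the filter on low values 3 were higher and 3 lower in treated UKE1. The interaction was called for 8 of the 14, against 23.9% of all genes. ANXA1 was lower (-2.73), the glucocorticoid receptor NR3C1 higher (1.07) and glutamine synthetase, GLUL, lower (-0.79). Hydrocortisone was in the UKE1 medium alone, so its part and that of the line cannot be told apart.

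Cholesterol synthesis genes were lower in UKE1: of 17, 1 was higher in treated UKE1, 16 lower and 0 not past the threshold (median difference -0.72, -0.37 untreated). SC5D read 10.40, 10.41 and 10.19 in treated HEL and 8.04, 8.09 and 8.14 in treated UKE1, 4.76-fold lower. INSIG1, which restrains the pathway (-1.95), CYP51A1 (-1.74) and MVK (-1.22) followed. CYP51A1 and MVK rose in HEL (0.42 and 0.64) and their differences widened. Of 27 integrin and tetraspanin genes, 10 were higher in treated UKE1, 13 lower and 4 not past the threshold (median difference -0.12), with the laminin receptor chain ITGA6 higher (3.02) and the collagen receptor chain ITGA2 (-3.03) and TSPAN7 (-3.22) lower.

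Markers of tissues other than blood gave mixed counts. Of 12 endothelial genes, 5 were higher in treated UKE1, 6 lower and 1 not past the threshold (median difference -0.43); 3 were higher without replicate 2 of treated UKE1. The VEGF receptor KDR read 10.61, 10.61 and 10.65 in treated HEL and 5.47, 5.42 and 5.39 in treated UKE1, 36.7-fold lower, against 13.2-fold without drug. FLT1 widened likewise (-4.39 against -3.20), ESAM was lower (-1.58), and VE-cadherin, CDH5, was higher (1.54). Of 14 fibroblast genes 7 were higher and 2 lower (median difference 0.15; 1 lower with the filter on low values), among them COL6A3 (2.38), SPARC (1.15) and COL5A1 (0.84). Of 11 keratin and epithelial genes 4 were higher and 2 lower (median difference 0.11; 2 and 1 with the filter). KRT8 (1.82) and KRT18 (1.07) were higher, and EPCAM was lower (-0.49), a call that the mean of its rows lost (-0.15, adjusted p = 0.423). Of 12 neuronal genes 4 were higher and 3 lower (median difference 0.14; 2 higher with the filter), with ENO2 (-2.55) and SYP (-1.26) lower and SERPINI1 (2.24) and SNAP25 (1.60) higher. The shares called in the fibroblast, keratin and neuronal lists were below the 68.0% of all genes, and that of the endothelial list (91.7%) was above. The list means of treated HEL arrays were 5.58 to 5.65, 6.25 to 6.30 and 5.87 to 5.95, and 7.86 to 7.90 for the endothelial list. Of the 12028 genes above the median of all values, 9411 were called. The shares thus run with signal level and are not read as traits of these tissues.

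Differences present only under the drug were smaller than the kept ones. Of the 740 genes, 372 were higher and 368 lower in UKE1, and 36 reached 2-fold. Their median absolute difference was 0.46 with drug and 0.087 without, a contrast that the class rule sets. The drug changed expression in UKE1 alone for 224 of them, in HEL alone for 195, in both for 292 and past the threshold in neither for 29. GRAMD1C, a sterol transport protein, read 5.18, 5.08 and 4.75 in HEL and 4.98, 5.28 and 5.30 in UKE1 without drug, and 5.49, 5.70 and 5.68 and 7.79, 7.62 and 7.53 with it. The untreated groups overlapped and the treated ones did not: the difference went from 0.18 ± 0.12 (adjusted p = 0.187) to 2.02 ± 0.12 (SE, adjusted p = 2.13e-09), 4.06-fold higher in UKE1. IRF4, a factor of lymphoid cells, rose in UKE1 (1.28) to a treated difference of 1.82. DHRS2, a dehydrogenase often raised by such inhibitors, rose in both lines (0.56 in HEL and 2.09 in UKE1) and ended 1.69 higher in UKE1. The pseudogene ADCY10P1 (1.61), which shares sequence with ADCY10, and the antisense RNAs MCPH1-AS1 (1.56) and SCOC-AS1 (1.56) completed the 6 largest increases. All 12 arrays of MCPH1-AS1 lay below the array medians of 6.41 to 6.50, so its values may be background.

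On the lower side the exchange factor DENND2C read 6.12, 6.38 and 5.96 in HEL and 6.31, 6.08 and 6.22 in UKE1 without drug, and 8.71, 8.54 and 8.64 and 6.69, 6.86 and 6.95 with it. It rose in both lines, by 2.48 in HEL and 0.63 in UKE1, which left UKE1 3.47-fold lower (adjusted p = 1.96e-09). The steroid regulator TRERF1 and BEX5 rose in HEL (1.56 and 1.32), giving differences of -1.29 and -1.34. Outside treated HEL all BEX5 arrays lay below the array medians of 6.41 to 6.50. The ferric reductase CYBRD1 read 9.75, 9.76 and 9.75 in treated HEL and 8.12, 8.23 and 8.24 in treated UKE1, after a fall of 1.54 in UKE1 (log2). The interleukin-18 receptor chain IL18RAP fell in both lines, more in UKE1, to a difference of -1.60. APOL3 rose in HEL (0.51), fell in UKE1 (-0.67) and ended -1.35 apart.

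The sequence before the start of the gene is shown for GRAMD1C and DENND2C, which gained the largest differences under the drug, and for GTSF1 and CRIPTO, the largest kept differences with a promoter in the RefSeq table (GRCh38.p14; HBE1 had no entry there). Each line gives the 250 bases before the start, 5′ to 3′ on the gene's strand. Capitals mark matches on either strand to any of 4 motifs. The TATA box was searched as TATAAA. The motif bound by GATA factors was searched with the letters AGATAA. The GC box, bound by factors such as SP1, was searched with the letters GGGCGG. The site of AP-1, the JUN and FOS factor, was searched with the letters TGACTCA.
GRAMD1C, chr3:113897250-113897499, plus strand: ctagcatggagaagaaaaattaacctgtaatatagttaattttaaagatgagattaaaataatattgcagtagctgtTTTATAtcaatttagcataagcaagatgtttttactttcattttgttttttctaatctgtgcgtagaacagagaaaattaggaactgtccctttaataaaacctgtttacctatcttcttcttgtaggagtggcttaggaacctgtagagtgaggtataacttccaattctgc
DENND2C, chr1:114670050-114670299, minus strand: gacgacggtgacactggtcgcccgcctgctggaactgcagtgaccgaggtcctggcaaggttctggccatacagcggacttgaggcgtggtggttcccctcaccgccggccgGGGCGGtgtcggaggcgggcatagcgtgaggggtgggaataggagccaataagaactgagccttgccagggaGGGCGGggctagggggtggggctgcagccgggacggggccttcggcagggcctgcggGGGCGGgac
GTSF1, chr12:54473603-54473852, minus strand: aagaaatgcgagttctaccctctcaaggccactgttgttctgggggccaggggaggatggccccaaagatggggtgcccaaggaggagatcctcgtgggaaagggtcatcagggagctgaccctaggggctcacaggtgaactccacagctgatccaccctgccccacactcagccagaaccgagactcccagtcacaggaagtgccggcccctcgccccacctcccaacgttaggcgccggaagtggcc
CRIPTO, chr3:46574285-46574534, plus strand: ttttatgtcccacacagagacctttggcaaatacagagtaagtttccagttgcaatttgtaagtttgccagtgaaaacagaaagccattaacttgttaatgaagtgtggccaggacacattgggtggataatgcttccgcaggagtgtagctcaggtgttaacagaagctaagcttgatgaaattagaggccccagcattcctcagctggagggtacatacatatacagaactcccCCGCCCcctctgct
The windows of 300 bases (250 before to 50 after the start) held 1 CpG in GRAMD1C, 24 CpG in DENND2C, 10 CpG in GTSF1 and 2 CpG in CRIPTO, against a median of 23 over the 14237 tested genes with a promoter. Genes whose difference existed only under drug, was lost or reversed had medians of 25, 26 and 25 CpG, and kept ones 24. GGGCGG, on either strand, occurred in 65.2%, 65.7% and 66.0% of the promoters of these 3 classes, in 63.2% for kept genes and in 60.0% of all. TATAAA occurred in 6.93% of promoters of genes present only under drug and in 8.998% of all, AGATAA in 7.45% and 7.59%, and TGACTCA in 2.77% and 3.55%. No motif contains another, though neighbouring matches may share end bases. These are descriptions of letters in a window, with no test.

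Differences lost under the drug numbered 769, of which 51 had been at least 2-fold. Their median absolute difference was 0.45 without drug and 0.089 with it, a contrast that the class rule sets. The galectin-like gene LGALSL read 7.27, 7.30 and 7.02 in HEL and 9.25, 9.06 and 9.13 in UKE1 without drug, and 8.34, 8.47 and 8.398 and 8.44, 8.43 and 8.397 with it. It rose in HEL and fell in UKE1 until the groups met (treated difference 0.02 ± 0.079, SE, adjusted p = 0.836). FCGR2B, the inhibitory Fc receptor, rose in HEL (1.96), from 5.05, 4.67 and 4.23 to 6.31, 6.50 and 7.01; probes may not separate it from its close relatives. The exchange factor VAV3 and the tumour antigen PRAME rose in HEL (0.86 and 0.60) and fell in UKE1 (-0.74 and -1.11). GPR174 and the olfactory receptor OR6A2 fell in UKE1 (-1.38 and -1.18). All 12 arrays of OR6A2 lay below the array medians of 6.41 to 6.50, so its values may be background. GPR174 lay at the threshold, with 0.26 and adjusted p = 0.0503, and was called in 11 of the alternatives. Of genes that had been lower in UKE1, the mTORC1 inhibitor DDIT4 read 6.42, 6.35 and 5.70 without drug and 8.31, 8.49 and 7.89 with it in UKE1, and 8.51, 8.502 and 8.65 in treated HEL. Its difference went from -1.94 to -0.32, and was called without replicate 2 of treated UKE1 (-0.46, adjusted p = 0.041) or replicate 3 of untreated UKE1 (adjusted p = 0.0279). The repair factor APLF, the zinc exporter SLC30A1, USP53 and the lipase ABHD6 rose in UKE1 by 1.56, 1.22, 1.56 and 1.90. LRTM2 fell in HEL (-0.79) and rose in UKE1 (0.30). A difference not past the threshold does not show that the lines are equal.

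Reversed differences were the rarest class, 326 genes with a median absolute difference of 0.30 with drug and 0.31 without. The BMP antagonist SOSTDC1 had the largest change. It read 5.13, 4.53 and 4.96 in HEL and 6.77, 6.75 and 6.40 in UKE1 without drug, and 6.38, 6.46 and 6.49 and 5.20, 5.32 and 5.33 with it. The difference went from 1.77 ± 0.13 to -1.16 ± 0.13 (SE), an interaction of -2.93 (adjusted p = 2.96e-07), and the groups did not overlap in either condition. ANGPT2, a ligand of the TEK receptor, went from 1.48 to -0.64 through a fall in UKE1 (-2.07). Carbonic anhydrase 2, CA2, and the prion protein gene PRNP rose in HEL (1.57 and 1.85), and CA2 also fell in UKE1 (-0.53). Both ended slightly lower in UKE1 than in HEL (-0.19 and -0.21, adjusted p = 0.0478 and 0.0455). These last calls were lost in several alternatives, among them quantile normalization (adjusted p = 0.347 and 0.27), and without replicate 1 or 3 of treated HEL or replicate 1 or 3 of treated UKE1. CA2 also lost it without replicate 2 of treated UKE1, replicate 3 of untreated HEL or replicate 2 of untreated UKE1 (adjusted p from 0.0563 to 0.189 with 1 array left out). PRNP lost it without replicate 2 of untreated HEL or replicate 1 or 3 of untreated UKE1 as well (0.05 to 0.186).

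Turned the other way was SGK1, a kinase induced by glucocorticoids. It read 5.54, 5.46 and 5.36 in HEL and 5.19, 5.35 and 5.24 in UKE1 without drug, and 5.44, 5.48 and 5.49 and 6.95, 6.98 and 6.93 with it. SGK1 rose by 1.69 in UKE1, and its log2 change in HEL was 0.014 (adjusted p = 0.892), which took the difference from -0.20 to 1.48. Outside treated UKE1 all its arrays lay below the array medians of 6.41 to 6.50. The untreated difference (adjusted p = 0.0142) is thus one between low values that may be background. The activin receptor ACVR2A (-0.28 to 1.30), the vesicle GTPase RAB3C (-0.97 to 0.49) and the zinc finger gene ZNF117 (-0.63 to 0.69) turned from lower to higher in UKE1.

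**Figure D4:**
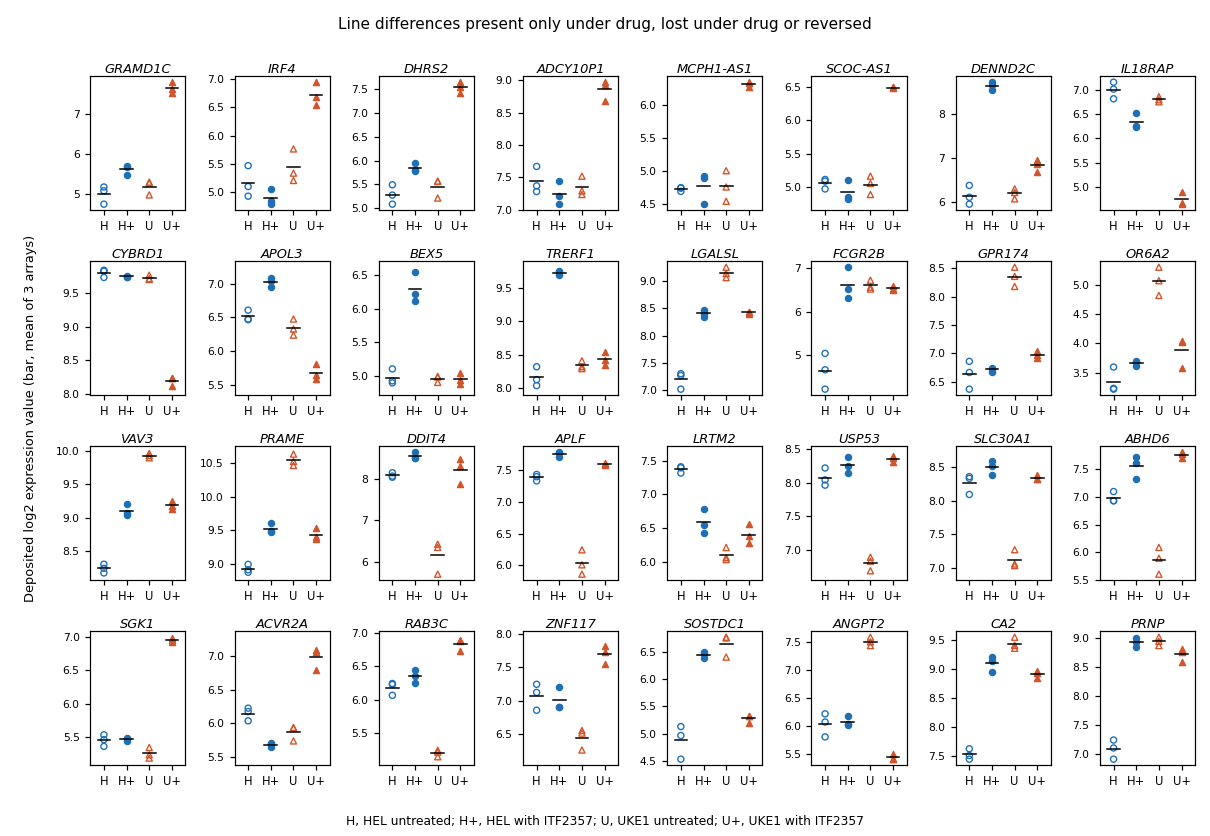
Deposited log2 values (y axis, at least 2 units per panel) of the genes named for differences present only under drug, lost or reversed. Circles are HEL and triangles UKE1, open without and filled with ITF2357, and bars are means of 3 arrays; DENND2C and FCGR2B rise most in HEL, GRAMD1C and DHRS2 most in UKE1, and LGALSL ends level in both lines.

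Kept differences whose interaction was called moved from a median absolute size of 1.33 to 0.75 where they narrowed and from 0.65 to 1.20 where they widened. The direction of both moves is set by how the classes were defined. Among the narrowed members of the lists, the keratin KRT79 changed most. It read 9.498, 9.495 and 9.52 in untreated HEL, 6.73, 6.77 and 6.83 in treated HEL and 5.72, 5.66 and 5.51 in treated UKE1. Its difference went from -4.06 to -1.15 (adjusted p = 3.97e-09 for the interaction). Among the widened members, KDR changed most by size, with an interaction of -1.48, followed by SERPINI1, a neuronal protease inhibitor (1.37). SERPINI1 read 6.91, 6.89 and 7.22 in treated HEL and 9.36, 9.20 and 9.19 in treated UKE1; it rose in both lines, more in UKE1.

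**Figure D5:**
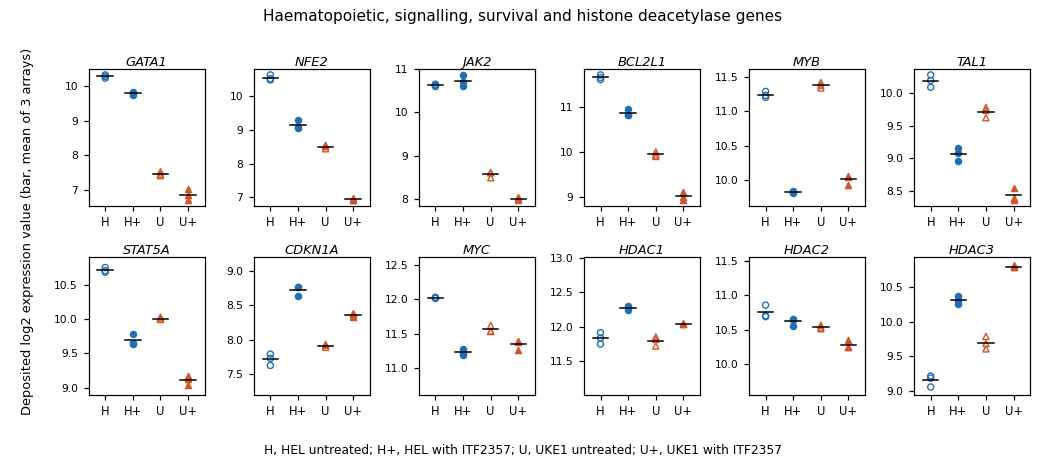
Deposited log2 values (y axis, at least 2 units per panel) of 12 haematopoietic, signalling, survival and histone deacetylase genes in the 4 groups, with circles for HEL, triangles for UKE1, filled symbols for ITF2357 and bars for means of 3 arrays. GATA1, NFE2, JAK2 and BCL2L1 stay apart in both conditions, and MYB lies close in both lines. CDKN1A changes order, and the treated MYC difference is small and not past the threshold in the main fit.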

How the data were processed

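ITF2357 and untreated HEL and UKE1 cells (4 groups of 3) were measured on Affymetrix Gene 1.0 ST arrays. Expression Console and the RMA method were used by the authors, per the submitters' processing notes; their versions are not stated in the labels used. The authors' deposited values were taken as log2, made by RMA, because they run from 1.26 to 14.36, with array medians of 6.41 to 6.50; no label states the base. Of 33297 rows, 19460 had 1 gene symbol in GEO's platform annotation, 1754 several and 12083 none; the highest-mean row was kept for each of 18417 genes, 769 of which had several rows. Genes are named with RefSeq symbols.

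limma 3.58.1 (lmFit, eBayes; R 4.3.3) fitted 1 mean per group to all 12 arrays, with 8 residual degrees of freedom. Contrasts were UKE1 minus HEL with drug, without drug, and their difference. Two-sided p-values were adjusted by Benjamini-Hochberg over all genes. The fit was tested on simulated data. Precision is limited by 3 arrays a group.

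The genes named were the 12 largest differences each way with non-overlapping treated arrays, 6 each way of those present only under drug and of those lost, 4 each way of those reversed, up to 4 members of each of 34 lists by adjusted p (636 of 714 entries measured), and 12 fixed genes. Lists and rules were chosen with earlier results of these data known, and XIST and genes of chromosome Y were not named. Alternatives covered samples, scaling, replicate numbers, filter, row choice, variance model, array weights and left-out arrays.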

Additional observations from a re-analysis of the deposited data

Results flagged for a closer look

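The line difference depended on the drug by the interaction test for 4395 of the 18417 genes, and for 101 of the 188 named genes; the named genes were in part chosen for it. The value in brackets is the treated minus the untreated line difference (UKE1 minus HEL, log2), all with a limma adjusted p under 0.05 over all genes. No explanation was tested.

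Present only under the drug were the differences of GRAMD1C (1.84), IRF4 (1.55), DHRS2 (1.53), ADCY10P1 (1.70), MCPH1-AS1 (1.52), SCOC-AS1 (1.58) and DENND2C (-1.85). So were those of IL18RAP (-1.41), CYBRD1 (-1.49), APOL3 (-1.18), BEX5 (-1.33), TRERF1 (-1.47), CDK2 (-0.63) and SIRT1 (0.49).

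Lost under the drug were the differences of LGALSL (-1.92), FCGR2B (-2.02), GPR174 (-1.46), OR6A2 (-1.49), VAV3 (-1.60), PRAME (-1.71) and DDIT4 (1.61). Lost too were those of APLF (1.19), LRTM2 (1.10), USP53 (1.37), SLC30A1 (0.99), ABHD6 (1.33) and MYC (0.57). The treated difference of MYC was called in 3 alternatives.

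Opposite signs in the 2 conditions were found for SGK1 (1.68), ACVR2A (1.58), RAB3C (1.46), ZNF117 (1.32) and SOSTDC1 (-2.93). The order of the lines also turned for ANGPT2 (-2.12), CA2 (-2.10), PRNP (-2.07) and CDKN1A (-0.56).

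The line difference of SNORD113-4 (0.97), SNORD113-3 (0.89), SNORD114-2 (0.88), TLE4 (0.78), AHR (-1.10), NTS (-0.89) and HBD (-0.87) was wider under the drug. Wider differences were also measured for CLEC1B (0.47), CD9 (-1.31), ITGAM (0.53), THY1 (-1.20), CR2 (-0.42), CD22 (1.23) and PAX5 (0.88). To these came KDR (-1.48), FLT1 (-1.19), SERPINI1 (1.37), SNAP25 (1.04), MEIS2 (-0.95), HOXB7 (-0.84) and HOXB5 (-0.46). A wider difference was likewise seen for JAK2 (-0.67), PTPN2 (0.37), BID (-0.40), CASP10 (-0.84), RIGI (-0.94), TAP1 (-0.32) and ANXA1 (-0.57). The widened genes also held GLUL (-0.27), CYP51A1 (-0.47) and MVK (-0.55).

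The line difference of CRISP3 (-0.75), CLEC9A (-0.54), TRPS1 (-1.01), CYP11A1 (0.44), HMOX1 (1.65), EPB42 (0.52) and DMTN (0.72) was narrower under the drug. Narrower differences were also measured for CSF1R (-1.36), S100A8 (-0.69), CD34 (-0.74), CDH5 (-1.01), KRT79 (2.92), MEIS1 (-0.60) and IL6R (-0.82). The drug also left closer lines for PIM2 (1.41), BCL2 (-0.82), TNFRSF10B (-1.75), CASP1 (-0.45), DDB2 (-0.76), GINS2 (-0.36) and BUB1 (0.47). Closer values in treated cells were found for GSN (-0.41), NOP2 (0.52), OAS2 (-0.78), MT1G (0.28), MT1F (0.69), MT1X (0.51) and JUN (1.16). The narrowed genes also held NR3C1 (-0.26), TSPAN7 (0.42), ITGA6 (-0.85), ITGA2 (0.73), CLEC1A (-0.61) and CLEC7A (-0.69).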

How the results depend on the processing

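The counts over all genes stayed within 1.5 times of the reported ones under the alternatives, except that testing all 33297 rows gave 19169 differing features, as more features were tested. The count of genes that differ between the treated lines ran from 11761 to 12622 with 1 array left out, and was 12738 on the treated arrays alone, 12477 after quantile normalization, 12466 after median centring, 9411 of the 12028 genes with a group mean above the median of all values and 13065 with array weights. With 1 array left out, 605 to 840 differences were present only under drug, 637 to 763 lost, 272 to 314 reversed and 9511 to 9757 kept. With the replicate block 12498 genes differed, 692 differences were present only under drug, 733 lost, 322 reversed and 9947 kept. Deviations from group means correlated at -0.11 to 0.065 between same-numbered samples and at -0.086 to 0.097 between samples of other numbers. With so few arrays a group, these values cannot decide whether same-numbered cultures were handled together. The labels do not say. Under the block GPR174 became called, no other named gene's call changed, and the 1 cholesterol gene higher in UKE1 was no longer called, as in 11 other alternatives. The lost differences of OR6A2, VAV3 and ABHD6 were called in 1 alternative each, those of APLF and LRTM2 in 2 each. Counts within gene lists moved more. The filter on low values, which tests fewer genes, left 4 T and NK cell genes lower, beside the lists for which its counts stand with the result. The mean of rows left 1 keratin and epithelial gene lower. No named difference that was called changed sign. Of genes called, 92.5% to 99.4% stayed called with the same sign with 1 array left out. Low signal limits what folds mean in the line that reads low.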

Other observations

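Small nucleolar RNAs of the imprinted cluster that holds SNORD113 and SNORD114 were looked up together after 3 of them appeared among the largest differences. Of 6 measured, 6 were higher in treated UKE1 than in treated HEL, by 3.13 to 7.06 (log2). In each of the 6 the difference was wider under the drug (interactions from 0.72 to 1.02), and in each the level rose in UKE1 with ITF2357 (log2 changes from 0.57 to 0.92), while in HEL 0 of 6 rose or fell past the threshold. These copies resemble each other in sequence, probes may not separate them, and they are not independent observations.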
